A study of Mus musculus with 6 samples.

Results

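The genes of Polycomb repressive complex 2 (PRC2) were examined for binding of the transcription factor E2F1 by chromatin immunoprecipitation and sequencing (ChIP-seq). The 10 genes, of 21900 protein-coding genes in the reference table, were Ezh2, Ezh1, Eed, Suz12, Rbbp4, Rbbp7, Jarid2, Aebp2, Mtf2 and Phf19. They were chosen by name, as known subunits of the complex, and a listed peak was assigned to a gene when it lay inside or within 1000 bp of the span of that gene on GRCm38 (mm10). The cells were NIH/3T3, an established line of mouse embryonic fibroblasts. They carried a stably integrated doxycycline-inducible construct, either for E2F1 (2 libraries) or an empty vector, EV (2 libraries). For all 4 libraries the labels give 0.25% serum for 48 hours and then doxycycline for 12 hours, so no comparison without doxycycline was made. The protocol in the labels states 500 ng/ml of doxycycline, but the names of the deposited lists carry another number beside the agent, so the dose is uncertain. Peak lists hold no expression values, so the cell type was not checked against marker genes here. Whether the constructs were carried by a clone or a pool of cells, and whether replicates were separate cultures, is not given in the sources used here.

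PRC2 methylates lysine 27 of histone H3, a mark of silenced genes. Its catalytic subunit is EZH2 or EZH1, which works in a core with EED, SUZ12 and the histone-binding proteins RBBP4 and RBBP7. One form of the complex holds the accessory subunits JARID2 and AEBP2, and the other holds a Polycomb-like protein such as MTF2 or PHF19. E2F factors bind promoters of genes needed for cell division, and EZH2 and EED are textbook E2F targets in proliferating cells, while EZH1 is known for its expression in resting and adult cells.

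The promoter sequences of 6 of the genes are shown first, since the peaks at 5 of them lie on or beside these sequences and Ezh1 serves as the gene with none. All 10 genes were matched in the RefSeq promoter table of GRCm38.p6, and each run below goes from 250 bases before the annotated start to the 30th base from the start on, 5′ to 3′ on the strand of the gene. Capitals mark E2F words, which are TTTCCCGC, TTTCGCGC, TTTGCCGC or TTTGGCGC (8 bases), or the same words without their first T (7 bases), on either strand. Ezh2, Suz12 and Phf19 are the genes with an 8-base word, and Rbbp4 has 7-base words only. Eed and Ezh1 are shown as genes that hold neither kind. The Eed peak stood highest by the mean over both lists of its percentile of fold, and Ezh1 had no listed peak. Rbbp7, Jarid2 and Mtf2 also hold neither kind, and Aebp2 has a 7-base word only, but these are not shown. The runs lie at chr6:47595001-47595280 (minus strand), chr11:79992856-79993135 (plus), chr2:34913947-34914226 (minus), chr4:129335341-129335620 (minus), chr7:89980947-89981226 (minus) and chr11:101226434-101226713 (minus).
Ezh2: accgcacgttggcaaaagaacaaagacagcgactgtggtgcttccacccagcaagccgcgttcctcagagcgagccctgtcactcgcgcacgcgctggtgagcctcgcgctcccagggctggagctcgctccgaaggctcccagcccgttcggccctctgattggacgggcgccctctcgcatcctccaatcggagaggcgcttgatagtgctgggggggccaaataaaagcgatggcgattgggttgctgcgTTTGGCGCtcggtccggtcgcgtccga
Suz12: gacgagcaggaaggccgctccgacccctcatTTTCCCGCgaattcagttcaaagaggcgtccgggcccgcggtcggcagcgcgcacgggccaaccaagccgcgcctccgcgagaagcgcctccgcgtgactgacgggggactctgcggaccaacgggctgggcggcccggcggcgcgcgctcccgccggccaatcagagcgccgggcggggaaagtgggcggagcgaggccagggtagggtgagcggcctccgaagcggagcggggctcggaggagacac
Phf19: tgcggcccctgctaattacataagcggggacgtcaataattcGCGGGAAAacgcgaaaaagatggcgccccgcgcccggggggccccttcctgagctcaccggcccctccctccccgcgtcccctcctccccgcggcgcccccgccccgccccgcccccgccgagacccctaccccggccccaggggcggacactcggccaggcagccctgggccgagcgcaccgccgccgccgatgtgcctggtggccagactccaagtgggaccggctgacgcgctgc
Rbbp4: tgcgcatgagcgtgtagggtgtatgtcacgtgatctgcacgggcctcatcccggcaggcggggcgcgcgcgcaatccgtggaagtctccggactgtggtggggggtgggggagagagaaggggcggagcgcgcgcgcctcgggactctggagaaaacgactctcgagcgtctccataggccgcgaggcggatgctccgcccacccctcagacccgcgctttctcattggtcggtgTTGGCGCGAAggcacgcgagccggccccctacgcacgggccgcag
Eed: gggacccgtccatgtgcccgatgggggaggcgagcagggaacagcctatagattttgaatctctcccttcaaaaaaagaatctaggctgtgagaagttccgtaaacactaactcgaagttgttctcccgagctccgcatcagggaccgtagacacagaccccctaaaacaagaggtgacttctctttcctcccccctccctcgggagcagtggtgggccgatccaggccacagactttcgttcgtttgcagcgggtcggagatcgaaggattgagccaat
Ezh1: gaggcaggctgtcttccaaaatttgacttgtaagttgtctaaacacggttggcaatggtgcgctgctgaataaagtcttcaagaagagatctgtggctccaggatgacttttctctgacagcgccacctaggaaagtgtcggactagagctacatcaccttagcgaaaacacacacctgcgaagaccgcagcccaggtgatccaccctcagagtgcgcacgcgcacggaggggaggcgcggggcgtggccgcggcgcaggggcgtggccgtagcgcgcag

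Of the 10 PRC2 genes, 9 had a peak in both E2F1 libraries, and Ezh1 had none in any library. Of all protein-coding genes, 34.4% had a peak in both, 36.9% in E2F1 replicate 1 and 38.3% in E2F1 replicate 2. Longer genes can collect more peaks by this rule. The PRC2 genes span 18.7 to 191 kb, and among the 9363 protein-coding genes with a span in that range the share was 45.3%. In EV replicate 1 no PRC2 gene had a peak (0.0365% of all genes did), and in EV replicate 2 only Jarid2 had one (0.406%). The number of PRC2 genes with a peak was 9 ± 0 (SD, n = 2) in E2F1 and 0.5 ± 0.707 (SD, n = 2) in EV, a difference of 8.5. The groups did not overlap. In an exact permutation test, two-sided, p was 0.33, the lowest value possible with 2 libraries against 2, so this design cannot pass 0.05.

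The lists held 7836 and 8027 peaks in E2F1 replicates 1 and 2, and 70 and 358 in EV replicates 1 and 2. No read totals were used. As an indirect measure only, the genome-wide background solved from the deposited values was 1.85, 1.86, 2.2 and 1.18 reads in the same order. At that background a site needed a pileup of at least 16 reads to enter either E2F1 list, and 17 and 13 reads to enter the EV lists. A weaker site is missing from a list by construction, so the lack of a peak at Ezh1 is a lack of listed signal and not of all signal.

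**Figure D1:**
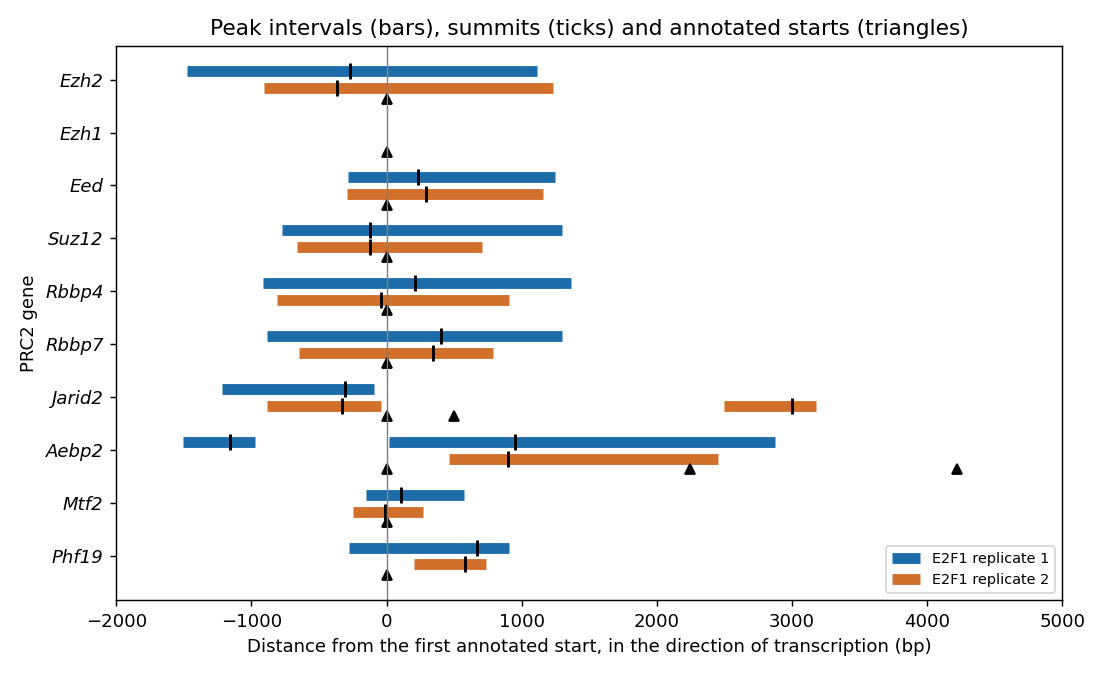
Peaks of the E2F1 libraries around the first annotated start of each PRC2 gene, in bp in the direction of transcription; bars are peak intervals, ticks are summits and triangles are annotated starts within the plotted range. Peaks of both replicates lie at the start region of 9 genes and none lies at Ezh1.

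The catalytic subunits stood at opposite ends. Ezh2 encodes the methyltransferase of dividing cells, and its peak had a fold enrichment of 34.7 in E2F1 replicate 1 and 81.3 in E2F1 replicate 2, with no peak in either EV library. Fold enrichment is the authors' ratio of read pileup to local background at the summit, and it is used here only within a list. By fold the peak ranked 150 of 7836 and 23 of 8027. It was broad, at 2593 bp (chr6:47593917-47596509) and 2140 bp (chr6:47593801-47595940), wider than 97.4% and 97.9% of the peaks of the lists. The summits lay 273 and 370 bp upstream of the annotated start and inside F830010H11Rik, a long non-coding RNA gene on the opposite strand. It overlaps the 5′ end of the Ezh2 span by 62 bp, and its start, chr6:47595209, lies between the Ezh2 start and the summits. The peak thus lies at the starts of both genes and cannot be assigned to one of them. The E2F word in the Ezh2 sequence shown above, TTTGGCGC, begins 3 bases after the annotated start (chr6:47595030), which lies inside the 5′ end of the span (chr6:47530274-47595270). It lay 280 and 377 bp from the summits.

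Ezh1, the related methyltransferase, had 0 peaks in each of the 4 lists. The nearest peak was 18.6 kb from the span (chr11:101191115-101226463) in both E2F1 libraries, beyond its 3′ end, with folds of 20.2 and 25.9. The 300 bp promoter window of Ezh1, of which the first 280 bases are shown above, holds none of the words searched. It has 23 CpG dinucleotides. That is close to the median of 24 over windows of genes with a peak in both E2F1 libraries, and above the median of 13 over all protein-coding windows.

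Eed, the subunit that reads the methyl mark, had peaks of 44.6-fold and 70.7-fold in E2F1 replicates 1 and 2, at ranks 50 and 49. The peaks, chr7:89979727-89981265 and chr7:89979818-89981271, shared 1448 bp, and their summits were 55 bp apart, 234 and 289 bp downstream of the start. The Eed promoter window has no E2F word. Its 17 CpG dinucleotides lie between the medians of 13 and 24 given above. Its GC content of 54.7% is below the medians over all protein-coding windows (56.3%) and over windows of genes with a peak in both (63.3%). Suz12, the scaffold subunit, had folds of 20.2 and 49.4, at ranks 887 and 202. Both libraries placed the Suz12 summit on the same base, chr11:79992986, 120 bp upstream of the start, in peaks of 2072 and 1370 bp (chr11:79992330-79994401 and chr11:79992445-79993814). The word TTTCCCGC in its sequence above lay 96 bp from that summit.

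Rbbp4 and Rbbp7, histone chaperones that also serve the chromatin assembly factor CAF-1 and histone deacetylase complexes, had lower folds than the other core genes with a peak in both libraries. At Rbbp4 the fold was 11.5 in E2F1 replicate 1 (rank 2795) and 30.4 in E2F1 replicate 2 (rank 807). The Rbbp4 peaks, chr4:129334007-129336287 and chr4:129334466-129336178, cover the space of 161 bp between Rbbp4 and its divergent neighbour Zbtb8os, so they cannot be assigned to one of these genes. The overlapping E2F words of the Rbbp4 sequence, which begin 15 and 12 bases before the start, lay 30 and 33 bp from the summit of replicate 2 and 221 and 218 bp from that of replicate 1. At Rbbp7, on the X chromosome, the folds were 15.3 (rank 1678) and 19.9 (rank 1816). Its summits lay 404 and 345 bp inside the gene, in peaks of 2184 and 1433 bp (chrX:162759485-162761668 and chrX:162759724-162761156), and its promoter window holds no E2F word.

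Among the accessory subunits, Aebp2, a zinc-finger protein, had the highest folds, 21.7 in E2F1 replicate 1 (rank 714) and 63.6 in E2F1 replicate 2 (rank 81). The Aebp2 gene has 3 annotated starts. The peaks of 2855 and 1988 bp (chr6:140622684-140625538 and chr6:140623127-140625114) cover the promoter window of the second start in full, with summits 950 and 899 bp downstream of the first start. That second window has 21 CpG dinucleotides and the 7-base word TTGCCGC, 61 bases before its start, while the windows of the other starts have 4 each and no E2F word. The word TTGCCGC lay 1238 and 1289 bp from the summits of replicates 1 and 2. Jarid2, a DNA-binding partner of the same form of PRC2, had folds of 11.7 (rank 2693) and 32.5 (rank 698). The Jarid2 peaks, chr13:44729555-44730679 and chr13:44729888-44730731, end 95 and 43 bp before the gene, and their summits were 18 bp apart. Neither Jarid2 window holds an E2F word.

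The Polycomb-like subunits, which recognise a histone mark and CpG-rich DNA, had lower folds than Ezh2, Eed, Suz12 and Aebp2 in both libraries. At Mtf2 they were 12.4 (rank 2460) and 17.3 (rank 2363), in narrow peaks of 723 and 525 bp at the first of 2 annotated starts (chr5:108065525-108066247 and chr5:108065423-108065947). At Phf19 they were 9.19 (rank 3911 of 7836) and 4.64 (rank 7816 of 8027). The Phf19 peak of replicate 1 spanned 1184 bp (chr2:34913069-34914252), and that of replicate 2 spanned 529 bp inside it (chr2:34913243-34913771). The summits lay 666 and 581 bp downstream of the start, and the word GCGGGAAA of its sequence, the complement of TTTCCCGC, was 870 and 785 bp away. Phf19 thus has an 8-base word in its window and the peak lowest in fold of the 9 genes in both libraries. Eed has no word in its window and ranks within the first 50 of each list. The windows run from 250 bases before a start to 50 bases after it, so the summits of both genes lie outside them. Sequence under those summits was not searched for words.

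**Figure D2:**
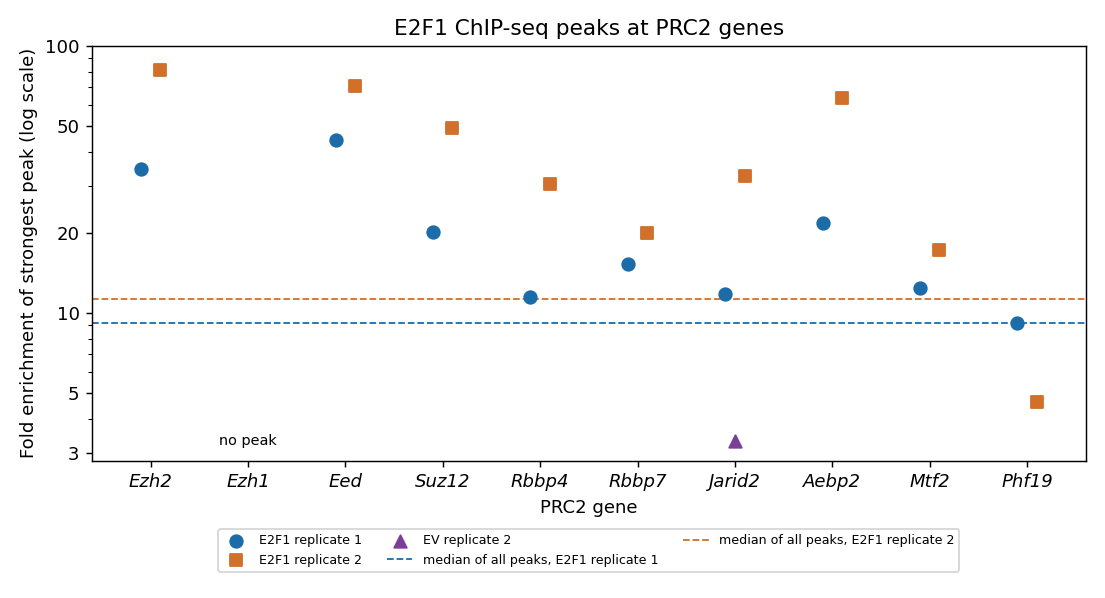
Fold enrichment (log scale) of the strongest peak at each PRC2 gene in each library with a peak; dashed lines are the medians of all peaks of the E2F1 lists. Of the E2F1 points, Phf19 lies at the median of its list in replicate 1 (9.19) and below it in replicate 2 (4.64), and the other 8 genes lie above; the only EV point is Jarid2 at 3.32.

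Over the 9 genes with a peak, the median fold of the strongest peak was 15.3 in E2F1 replicate 1, against 9.73 over all protein-coding genes with a peak there and 9.19 over all peaks. In E2F1 replicate 2 it was 32.5, against 12.0 and 11.3. As a percentile of the list, meaning the share of its peaks with a lower fold, the median was 78.6 in replicate 1 and 91.2 in replicate 2, against 54.0 and 53.1 for all such genes. In the upper 10% of the list stood 3 of the 9 genes in replicate 1 (Eed, Ezh2 and Aebp2) and 5 in replicate 2, where Suz12 and Jarid2 joined them. Of all genes with a peak, 11.3% and 10.8% stood there. Without Rbbp4 and Rbbp7, the median fold of the remaining 7 genes was 20.2 and 49.4. The peaks were also wide, with a median width of 2072 and 1433 bp against 974 and 845 bp for all genes with a peak. Some related genes had wide peaks too. The 6 H3K4 methyltransferase genes had medians of 2364.5 and 1516 bp and the other PRC2 partners 1720 and 1613 bp. Over all 56 related genes described below, the medians were 1324 and 1256.5 bp. The PRC2 members with a peak passed the peak lists' own threshold, so their medians describe the 9 listed genes and not all 10.

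The same 4 genes led both replicates, with Eed above Ezh2 in replicate 1 and below it in replicate 2. Eed stood at percentiles 99.4 and 99.4, within the range of Ezh2 at 98.1 and 99.7. Aebp2 (90.9 and 99.0) and Suz12 (88.7 and 97.5) followed. Aebp2 stood above Suz12 within each list, while their ranges over both lists overlapped. Jarid2 (65.5 and 91.2), Rbbp7 (78.6 and 77.2) and Rbbp4 (64.3 and 89.9) overlapped as well, with Jarid2 above Rbbp4 within each list. Mtf2 (68.6 and 70.5) lay within the range of Rbbp4 and below both values of Rbbp7. Phf19, at 50.1 and 2.55, lay below every value of the other 8 genes.

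**Figure D3:**
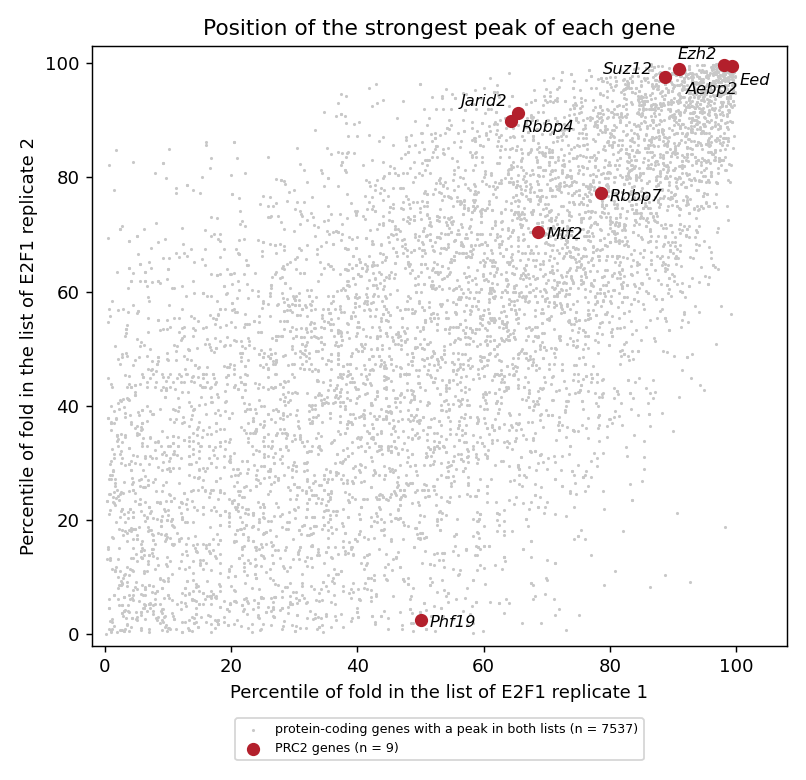
Percentile of fold of the strongest peak of each gene in the lists of E2F1 replicate 1 (x) and replicate 2 (y); grey points are the 7537 protein-coding genes with a peak in both, red points the 9 PRC2 genes. Eed, Ezh2, Aebp2 and Suz12 gather at the upper right, and Phf19 lies at 50.1 and 2.55.

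Phf19 shifted most between the lists, by -47.5 percentile points from replicate 1 to replicate 2. Of the 7537 genes with a peak in both, 1.55% fell as far or farther. Rbbp4 and Jarid2 moved by 25.7 points the other way, as far as 12.2% and 12.1% of genes. Each fold was split into its read pileup and its local background, both solved from the deposited fold and p-value. At Phf19 the pileup was 26 reads in replicate 1 and 27 in replicate 2, while the local background was 1.94 and 5.03 reads. Its pileup thus hardly differed, and the background at its summit was 2.71 times the genome-wide value in replicate 2 against 1.05 times in replicate 1.

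At Rbbp4 the pileup was 99 reads against a background of 7.71 in replicate 1, and 148 against 3.9 in replicate 2. At Jarid2 it was 56 against 3.86, and 92 against 1.86. At Ezh2 it was 198 against 4.74, and 269 against 2.32, while at Eed it was 200 against 3.5, and 201 against 1.86. The local background was higher in replicate 1 at 8 of the 9 genes, all but Phf19, and the pileup was higher in replicate 2 at 8, all but Rbbp7. The shares of all genes that went the same way were not counted, so these counts cannot be called particular to PRC2. Over all protein-coding genes with a peak, the median background was also higher in replicate 1, at 4.12 reads against 2.83, and the median pileups were 49 and 48 reads. The PRC2 medians were 97 and 148 reads. Each pileup is a count of reads at 1 position in 1 library. The part of the local background in the differences between replicates was not tested.

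**Figure D4:**
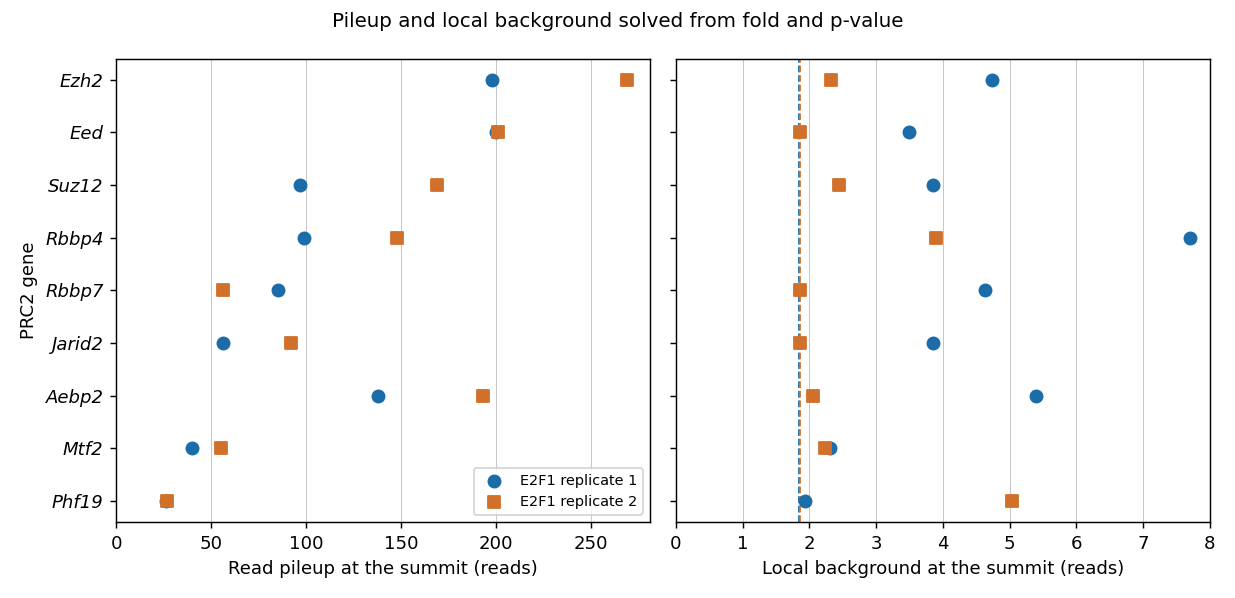
Read pileup (left, reads) and local background (right, reads) at the summit of the strongest peak of each PRC2 gene with a peak, by E2F1 replicate; dashed lines are the genome-wide backgrounds of 1.85 and 1.86 reads. Phf19 has pileups of 26 and 27 reads but backgrounds of 1.94 and 5.03.

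The EV peak at Jarid2 was of another kind. It lay inside the gene, 138 kb downstream of the nearest annotated start, at chr13:44869578-44869873, 296 bp wide, with a fold of 3.32 that ranked 263 of 358. Its pileup of 61 reads stood on a local background of 17.7 reads, which is 15 times the genome-wide background of that library. Neither E2F1 library listed a peak there. Within 1000 bp of an annotated start, 9 PRC2 genes had peaks in both E2F1 libraries, as did 32.0% of all protein-coding genes. No PRC2 gene had an EV peak there. EV peaks were rare at all genes, within 1000 bp of the span of 0.0365% (EV replicate 1) and 0.406% (EV replicate 2), so their lack is no trait of PRC2 genes.

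Sequence words were then counted over all promoters of the same 300 bp length. An 8-base E2F word was found in 3 of the 10 PRC2 genes (Ezh2, Suz12 and Phf19) and in 2.26% of all 32851 promoter windows. By gene it was found in 3.29% of the 17492 protein-coding genes with a window. The share of genes with such a word was 6.19% among genes with a peak in both E2F1 libraries and 1.43% among those with none. A 7-base word was found in 5 PRC2 genes, with Rbbp4 and Aebp2 added, in 13.7% of protein-coding genes and in 24.1% of those with a peak in both E2F1 libraries. CCAAT, the word bound by NF-Y, was found in 8 of the 10 genes, against 42.3% of all genes and 42.4% of those with a peak in both. The GC box GGGCGG was found in 7, against 49.2% of all genes and 75.7% of those with a peak in both, so the PRC2 count is near the latter share. TTTGAA, the cell cycle homology region word, was found in 4, against 18.5% and 13.7%. At Mtf2 and Aebp2, both TTTGAA and CCAAT were found only in the window of a later start that no listed peak overlaps. They lay at least 3034 bp from the summits there. All words were searched on both strands and may overlap each other, and a match is a description of the letters only. Sequence outside the windows was not searched, and most summits lie there. Of the strongest E2F1 peaks, only those of Suz12 in both libraries and of Rbbp4 and Mtf2 in replicate 2 have summits inside a window. The counts thus do not cover the sequence under the other summits.

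The rest of the Polycomb system was described from 56 genes in 5 lists. Of the 22 genes of PRC1, the complex that ubiquitinates histone H2A and binds the mark PRC2 makes, 19 had a peak in both E2F1 libraries, beside the 34.4% of all genes. The exceptions were Phc3, listed in replicate 2 only, and Bcorl1 and L3mbtl2, listed in replicate 1 only. By mean percentile of fold, by which the leading gene of each list is named, Phc1 stood first, with folds of 38.6 and 61.6, while Pcgf5 had a higher fold in replicate 2, 68.5. Among the other partners of PRC2, 3 of 6 had a peak, led by Lcor with 22.7 and 54.5, while Phf1, also Polycomb-like, as well as Epop and Ezhip had none in either E2F1 library. Of the genes that remove the PRC2 mark or deubiquitinate histone H2A, 5 of 6 had a peak, led by Asxl1 with 18.8 and 24.1, and the demethylase gene Kdm6b was listed in replicate 1 only.

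All 16 genes of the other complexes that use Rbbp4 and Rbbp7 had a peak in both, led by Mta1 with 32.6 and 32.3. One of these, Chaf1a, was also listed in both EV libraries, where it ranked 1 by fold (11.3 in EV replicate 1 and 168.5 in EV replicate 2). In E2F1 replicates 1 and 2 it ranked 554 and 833. The 6 H3K4 methyltransferase genes, which oppose Polycomb silencing, all had a peak too, led by Kmt2c with 24.2 and 21.3. Over the 56 genes, 49 had a peak in both (87.5%), close to the 9 of 10 for PRC2. Their median percentile was 68.6 in replicate 1 and 65.2 in replicate 2, against 78.6 and 91.2 for PRC2. No test compares these lists, and the difference between them is a description. The 3 of the 56 genes nearest to Eed in the percentiles of both lists, over 2 libraries, were Phc1, 0.814 percentile points away, Pcgf5, 3.31 points away, and Cbx6, 5.29 points away.

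**Figure D5:**
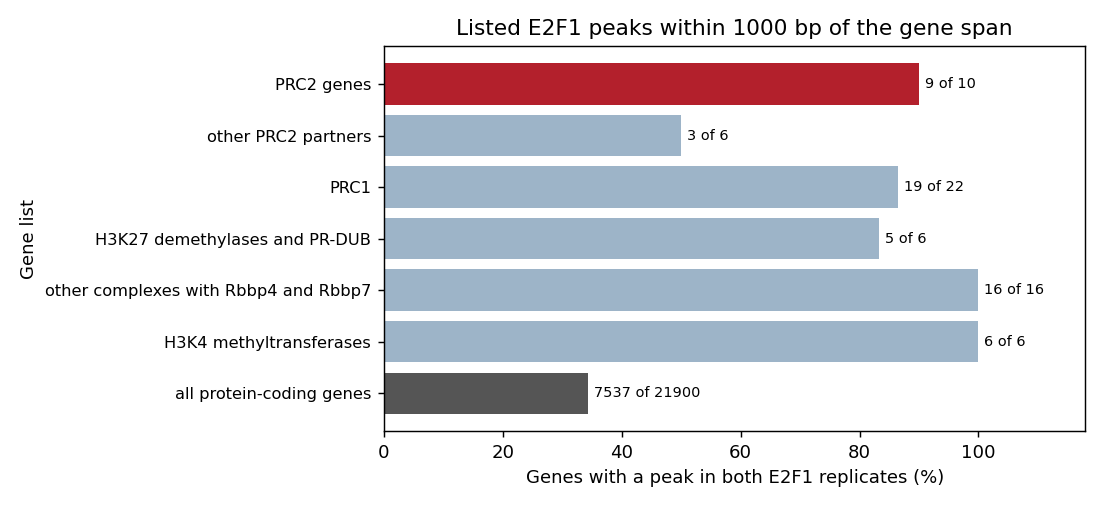
Share of genes with a peak in both E2F1 replicates within 1000 bp of the gene span, for the 10 PRC2 genes, the 5 related lists and all protein-coding genes; bars start at 0 and the counts stand beside them. PRC2 has 9 of 10 and all protein-coding genes 7537 of 21900.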

How the data were processed

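Peaks of E2F1 ChIP-seq were deposited as 1 list per library, for 4 libraries; the 2 input samples named in the labels were not analysed here. The submitters' processing notes name FastQC, Trimmomatic, Bowtie2, MACS2 and ChIPseeker and the build mm10. Their settings, the antibody and the control of each list are not given in the sources used here. The protocol text in the labels describes RNA. In each deposited list, column 5 is a score, equal to 10 times the −log10 q-value rounded down, column 7 the fold (a ratio of pileup to local background), and columns 8 and 9 the −log10 p and −log10 q-value. The smallest −log10 p of every deposited list lay just above 10, as in lists filtered there.

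Peaks were joined to RefSeq gene spans of GRCm38.p6 with Python 3.11.15, pandas 2.3.3 and NumPy 2.4.6, at 1 bp of overlap with the span widened by 1000 bp. Gene starts and promoter sequences came from the RefSeq promoter table of that build. Positions are counted from 1. Pileup and background were solved from the deposited fold, as pileup plus 1 over background plus 1, and the Poisson upper tail. A whole-number pileup was found within 5% of a read for 99.99% (E2F1 replicate 1), 99.98% (E2F1 replicate 2), 95.71% (EV replicate 1) and 99.72% (EV replicate 2) of peaks. The lowest background of a list was taken as genome-wide. The join and the solution were tested on simulated data. Numbers of genes per library were compared by an exact permutation test.

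All 10 members are named, then the strongest gene of each related list by mean percentile, the 3 genes most like the highest member, genes missing from a list and neighbours sharing a peak. Members and lists were chosen with earlier results of these data known. Alternatives are described in the closing section.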

Additional observations from a re-analysis of the deposited data

How the results depend on the processing

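Of 52 alternatives over 9 results, 46 kept the direction and stayed within 1.5 times a count or within the spread between the lists. That spread is the SD of the medians of the 2 E2F1 lists, 12.2 in fold and 8.95 percentile points. In replicate 1 the median folds of PRC2 genes (15.3) and of all genes with a peak (9.73) lie closer together than that. Staying within the spread thus says little for fold. PRC2 genes with a peak in both E2F1 libraries numbered 8 or 9 of 10, or 7 of the 8 left when Rbbp4 and Rbbp7 were taken out of the list. Jarid2 was lost without the 1000 bp window, Phf19 at scores at or above each list's median (against 17.1% of all genes there) and at reciprocal overlap of 50%, and Rbbp4 with summits within 200 bp. At that score the related genes fell from 49 to 32 and all protein-coding genes from 7537 to 3743, since weaker peaks were removed by construction. Without Rbbp4 and Rbbp7 the median fold in E2F1 replicate 2 was 49.4 and the median percentile in replicate 1 was 88.7, and by width that percentile was 92.9. With 7-base words the promoters with an E2F word rose from 3 to 5.

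The difference between E2F1 and EV ran from 8.0 to 9.0 genes without 1 library at a time, and no such set can pass 0.05. The replicate block left it at 8.5 (exact sign-flip p = 0.5, the smallest that 2 pairs can give), and whether the numbers pair the libraries cannot be seen from 1 value each. The filter at a −log10 p of 10 limits every absence. The lowest genome-wide background, 1.18 reads, was that of EV replicate 2, and sequencing depth itself was not measured.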

Other observations

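Further peaks at the PRC2 genes were listed in 1 E2F1 library only. At Aebp2, E2F1 replicate 1 listed a second peak upstream of the first start, at chr6:140621158-140621693, at 6.25-fold, from a pileup of 18 reads. At Jarid2, E2F1 replicate 2 listed a second peak inside the gene, at chr13:44733270-44733948, at 5.58-fold, from a pileup of 24 reads. Both pileups were close to the 16 reads needed to be listed at the genome-wide background. The strongest peaks had summits downstream of the nearest annotated start at 6 of 9 genes in replicate 1 and 4 of 9 in replicate 2, beside 70.2% and 62.2% of all protein-coding genes with a peak and an annotated start. They lay within 500 bp of that start at 7 of 9 genes in each replicate, beside 84.4% and 85.5%. The genes outside that distance in both were Aebp2 and Phf19.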
